A study of Mus musculus with 6 samples.

Results

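The 8 genes described here are *Grp*, *Ntrk2*, *Bdnf*, *Sox10*, *S100b*, *Gfap*, *Cryab* and *Ncam1*, taken by symbol from the table of gene counts of mouse islets. All 8 of them, among 19342 genes in the table, passed the filter on low counts, which 14619 genes passed. They were chosen because of how they stood in FXR-/- against FXR+/+ islets in these same libraries, so their genotype differences are given as a description, without a test. The question put to the data was whether *Grp* and *Ntrk2* move together with genes of Schwann cells and nerves. Islets were isolated from the pancreas of mice aged 3 months, either FXR+/+ (wild type) or FXR-/-, in which the bile acid receptor gene *Nr1h4* is knocked out. The labels do not limit the knockout to a tissue. Each genotype had 1 female and 2 male libraries, called female 1, male 1 and male 2, and no treatment other than the isolation is listed. The study's methods give C57Bl/6 as the strain of the FXR-/- mice. The number of mice behind a library is not given in the sources used here, so the spread between libraries may hold less than the spread between animals.

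Gastrin-releasing peptide, the product of *Grp*, is a bombesin-like neuropeptide that in the pancreas is released from parasympathetic nerve endings and stimulates secretion through its receptor GRPR. *Ntrk2* encodes TrkB, the receptor of the neurotrophin BDNF, which is made as a full-length tyrosine kinase and as a truncated form without the kinase. The islet is enclosed by a sheet of Schwann cells, which depend on the transcription factor SOX10 and contain S100B and GFAP, and autonomic axons enter it along blood vessels. Endocrine cells themselves use many genes of neurons, among them the adhesion molecule NCAM1, so a neural gene in an islet library need not come from a nerve. In whole islets, more cells of a type and more RNA per cell cannot be told apart.

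The libraries held 20629306 to 30139235 counts. *Nr1h4*, the targeted gene, stood at 13.3 ± 1.03 CPM (counts per 1000000 counts of the library, scaled by TMM, a correction for differences in RNA composition; SD, n = 3) in FXR+/+ and 6.37 ± 1.09 in FXR-/-, with every FXR-/- library lower than every FXR+/+ library. FXR+/+ male 1 stood apart from the other FXR+/+ libraries. It had 78 counts of *Dbh* and 72 of *Slc6a2*, the dopamine hydroxylase and the noradrenaline transporter of sympathetic cells, against at most 1 count of either gene in each of the other libraries (both genes were chosen after their values were seen). Acinar genes, which code for digestive enzymes of the exocrine pancreas, made up 10.7% of its counts and 11.0% of those of FXR-/- male 1, against 3.76% to 6.90% in the other 4 libraries. The log2 differences of the genes described here and the medians of the lists are therefore given with and without FXR+/+ male 1. Values of single listed genes are mostly given with it.

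Of the 14619 genes tested with edgeR with a term for sex, 0 (0%) had an adjusted p under 0.05 for genotype, while 905 (6.19%) were higher and 608 (4.16%) lower in FXR-/- at an unadjusted p under 0.05. With the same-numbered libraries as a replicate block 24 genes (0.164%) passed the adjusted threshold, and with DESeq2 177 genes (1.21%) did. *Grp* and *Ntrk2* were among both of these sets and the other 6 genes were in neither. All 3 FXR-/- libraries lay above all 3 FXR+/+ libraries for *Grp*, *Ntrk2*, *Bdnf* and *Gfap*, that is 4 of 8, where this held for 8.02% of all genes tested, and the reverse, which held for 7.37% of all genes, was seen for none of the 8. In the exon table, scaled in the same way, *Grp* and *Ntrk2* again had groups apart, whereas those of *Bdnf* and *Gfap* overlapped. Because the genes were picked on this contrast, nothing is read from these counts.

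**Figure D1:**
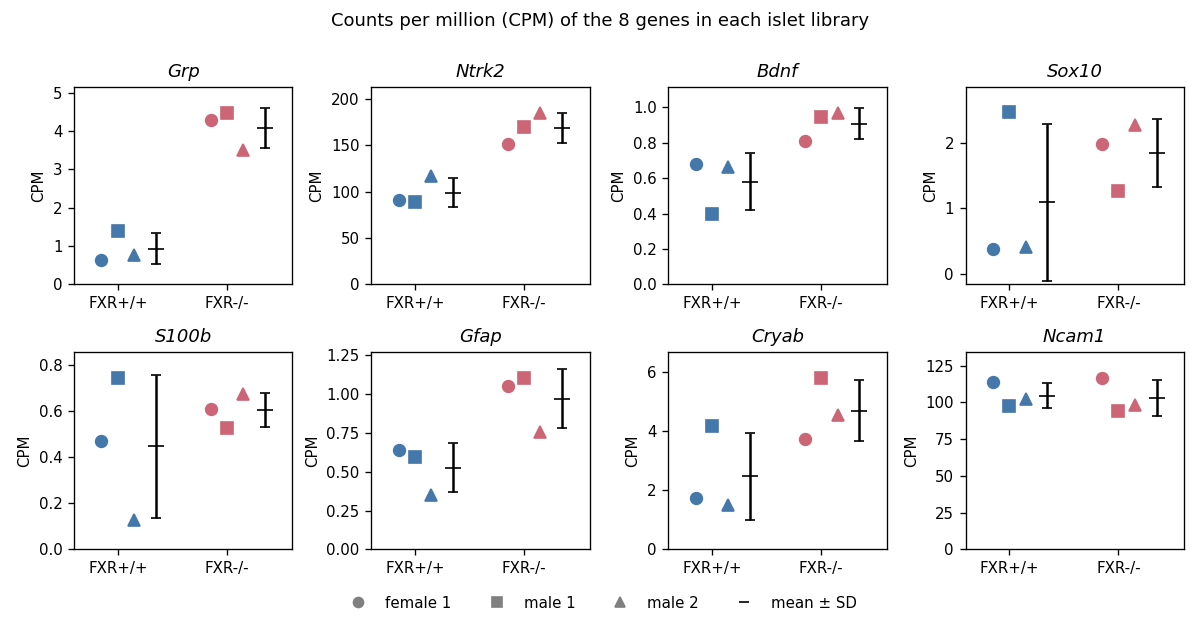
Each panel plots 1 of the 8 genes, with CPM on a linear axis, FXR+/+ libraries in blue and FXR-/- libraries in red, a symbol for each library number, and the mean ± SD of 3 libraries in black. The groups are apart for *Grp*, *Ntrk2*, *Bdnf* and *Gfap*, *Sox10*, *S100b* and *Cryab* have a high FXR+/+ male 1, and *Ncam1* lies near 100 CPM throughout.

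*Grp* (NCBI gene 225642, on chromosome 18) was the gene with the largest ratio between genotypes of the 8. FXR+/+ female 1, male 1 and male 2 gave 15, 28 and 24 counts, and the FXR-/- libraries in the same order 106, 85 and 83. On the CPM scale these were 0.639, 1.39 and 0.758 in FXR+/+ and 4.29, 4.47 and 3.49 in FXR-/-. All FXR-/- libraries were thus well above the FXR+/+ libraries, FXR+/+ male 1 included. The log2 difference was 2.18 (SE 0.31), a ratio of 4.52, and within the same-numbered pairs the ratios were 6.72, 3.22 and 4.61. Without FXR+/+ male 1 the log2 difference was 2.52 (SE 0.28). The exon table, whose counting rule is not stated, held 5 counts in each FXR+/+ library and 26, 27 and 34 in FXR-/-. Over all libraries this was 29.9% of the *Grp* counts of the gene table, the lowest share of the 8 genes.

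The receptor genes of the bombesin system were near the limit of detection, and the other peptide gene, *Nmb*, had 20 to 36 counts per library. The receptor gene *Grpr* had 11, 9 and 14 counts in FXR+/+ and 9, 4 and 4 in FXR-/-, too few to enter the test, and its CPM values in FXR-/- were all below those in FXR+/+. *Nmb*, which encodes the related peptide neuromedin B, was at 0.938 to 1.24 CPM in FXR+/+ and 0.842 to 1.89 in FXR-/-, with a log2 difference of 0.17 (SE 0.36). The receptor genes *Nmbr* and *Brs3* had at most 4 and 1 counts in any library. The peptide gene was therefore the 1 member of the family with clearly more counts in FXR-/-, while RNA of its receptor was scarce in islets of both genotypes.

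*Ntrk2* (NCBI gene 18212) lies on the plus strand of chromosome 13, chr13:58806472-59133970 in GRCm38. In the FXR+/+ libraries it was at 90.4 CPM in female 1, 89.1 in male 1 and 117 in male 2, and in FXR-/- at 152, 169 and 185 CPM. The FXR-/- libraries were all higher, and FXR+/+ male 1, the library with the *Dbh* and *Slc6a2* counts, had the lowest value of the 6. The log2 difference was 0.77 (SE 0.11), a ratio of 1.71, with pair ratios of 1.68, 1.90 and 1.58. It was 0.66 (SE 0.09) without FXR+/+ male 1.

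The exon counts show in part which form of the receptor this RNA encodes. The truncated and the full-length transcript share their exons up to chr13:58878262, where the extracellular part and the membrane span have been encoded, and part from there. The sequences at this point are shown because the count of one end against the other is the only measure of the form, with the last 10 shared bases in lower case and the first 20 bases of each end in capitals. The third line gives the last 30 coding bases of the truncated form, with its stop codon in capitals (GENCODE vM21 transcripts Ntrk2-202 and Ntrk2-201, plus strand of GRCm38).
Truncated receptor, continuing at chr13:58932023-58932042: ggcatgaaagGTTTTGTTTTGTTTCATAAG
Full-length receptor, continuing at chr13:58985802-58985821: ggcatgaaagGCCCAGCTTCGGTCATCAGC
Truncated receptor, coding end at chr13:58932031-58932060: ttgtttcataagatcccactggatgggTAG
The truncated reading frame thus ends after 38 bases of its own exon, stop included, and the rest of that exon, exon 14 of the table, is untranslated.

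Exon 14, which ends the truncated receptor, held 1030, 817 and 1828 counts in FXR+/+ and 1825, 1442 and 1998 in FXR-/-. The exons found downstream of it in the full-length receptor alone (15, 17, 19 and 20) held 46, 38 and 91 counts in FXR+/+ and 96, 52 and 86 in FXR-/-, nearly all of them in exon 20, chr13:59128168-59133970. The truncated end therefore took 95.7% (exact 95% binomial interval 94.3% to 96.9%), 95.6% (93.9% to 96.8%) and 95.3% (94.2% to 96.2%) of these counts in FXR+/+, and 95.0% (93.9% to 95.9%), 96.5% (95.5% to 97.4%) and 95.9% (94.9% to 96.7%) in FXR-/-. These intervals cover counting error only. The share was 95.5% ± 0.236 in FXR+/+ and 95.8% ± 0.761 in FXR-/- (SD, n = 3), and the difference of 0.286 percentage points was within the spread of the libraries (exact two-sided permutation test, p = 0.600, where the smallest p of 3 against 3 is 0.1). Scaled to library size, exon 14 was at 47.3 ± 9.11 CPM in FXR+/+ and 77.9 ± 5.39 in FXR-/-, a ratio of 1.65, and the exons of the full-length receptor at 2.24 ± 0.550 and 3.41 ± 0.603 CPM, a ratio of 1.53. Of the counts that tell the forms apart, most thus came from the truncated receptor in both genotypes. The exon table held 56.7% of the *Ntrk2* counts of the gene table, and the counts outside these exons could not be assigned to a form. The lengths of the ends differ (5009 bases against 6324), and per base the truncated share was 96.4% ± 0.191 and 96.6% ± 0.614.

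**Figure D2:**
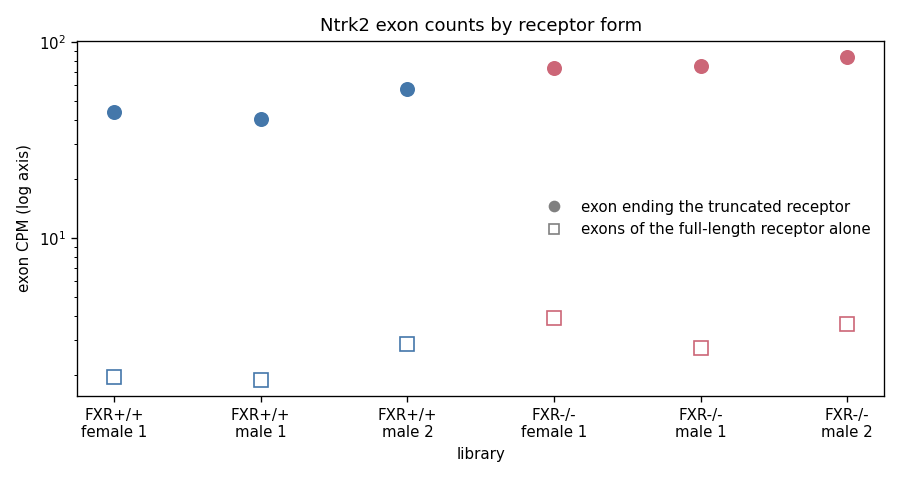
Exon CPM of *Ntrk2*, on a log axis, in each library (FXR+/+ blue, FXR-/- red): filled circles, the exon that ends the truncated receptor; open squares, the exons found in the full-length receptor alone. The circles lie at 40.5 to 57.7 in FXR+/+ and 73.9 to 84.0 in FXR-/-, the squares at 1.88 to 2.87 and 2.73 to 3.89, with the groups of squares overlapping.

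*Bdnf*, the ligand gene (NCBI gene 12064, plus strand, chr2:109674700-109727043), was scarce. Its counts were 16, 8 and 21 in FXR+/+ and 20, 18 and 23 in FXR-/-, which on the CPM scale is 0.682, 0.396 and 0.663 against 0.810, 0.947 and 0.968. The groups did not overlap, but the log2 difference of 0.61 had an SE of 0.37 and was 0.41 (SE 0.33) without FXR+/+ male 1. In the exon table they overlapped, with 15, 7 and 20 counts in FXR+/+ and 15, 16 and 19 in FXR-/-. Per kilobase of annotated exon, *Bdnf* was at 0.0934 ± 0.0257 CPM in FXR+/+ and *Ntrk2* at 5.11 ± 0.804, so RNA of the receptor exceeded that of this ligand in every library. By mean level per kilobase, *Ntrk2* stood at percentile 64.5 and *Bdnf* at percentile 1.74 of the 14009 tested genes with an annotated length. A part of the *Bdnf* exons, 896 bases, overlaps the gene *Gm45346* on the opposite strand, and whether the counting used strand is not given in the sources used here.

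Of the other neurotrophin ligands and receptors, 8 of 10 were tested, 0 passed the adjusted threshold and 0 the unadjusted one in either direction. *Sort1*, the sortilin gene, was the most abundant at 224 to 269 CPM in FXR+/+ and 232 to 256 in FXR-/-, and *Sorcs2* was next at 15.7 to 27.8 against 23.6 to 36.1. *Ntrk3*, the receptor gene of neurotrophin 3, was at 0.379 to 0.770 CPM across all libraries. The ligand gene *Ntf3* had a log2 difference of 0.49 (SE 0.31), with overlapping groups, and *Ntf5*, another TrkB ligand, had 0 counts in FXR+/+ and 1 in each FXR-/- library. *Ngfr*, the low-affinity receptor p75 that also marks Schwann cells, was highest in FXR+/+ male 1, at 4.36 CPM against 1.11 and 0.347 in the other FXR+/+ libraries and 2.21 to 2.82 in FXR-/-. Among adaptors and other signalling proteins downstream of the receptors, 0 of 9 tested genes passed either threshold, and the median log2 difference of 0.04 was close to the 0.01 of all genes tested. The most abundant of these, *Kidins220*, a scaffold of the Trk receptors, was at 242 to 273 CPM in FXR+/+ and 246 to 284 in FXR-/-, *Shc1* at 156 to 197 and 142 to 151, and *Grb2* at 73.2 to 83.5 and 78.9 to 81.0. The FXR-/- values of *Shc1* and of *Frs2*, a docking protein of the receptors, were all below those of FXR+/+ (2 of 9 genes, against 7.37% of all genes).

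*Sox10* (NCBI gene 20665, minus strand, chr15:79154913-79164490), the transcription factor of the Schwann cell lineage, followed another order of libraries than *Grp* and *Ntrk2*. Its counts were 9, 50 and 13 in FXR+/+ and 49, 24 and 54 in FXR-/-. In CPM, FXR+/+ female 1 and male 2 were at 0.384 and 0.410, FXR+/+ male 1 was at 2.48, the highest value of all, and FXR-/- was at 1.98, 1.26 and 2.27. The pair ratios were 5.17 and 5.54 in female 1 and male 2, but 0.509 in male 1. The log2 difference was 0.93 with an SE of 0.68, and 2.21 (SE 0.41) without FXR+/+ male 1. It was 0.41 (SE 0.57) without FXR+/+ male 2, and 0.39 (SE 0.78) without FXR+/+ female 1 or without FXR-/- female 1. The difference thus varied in size with the library left out. With a term for acinar RNA it was 0.58 (SE 0.56).

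*S100b* (NCBI gene 20203, plus strand, chr10:76253836-76261319), a calcium-binding protein of Schwann cells and other glia, had 11, 15 and 4 counts in FXR+/+ and 15, 10 and 16 in FXR-/-. The groups overlapped, with FXR+/+ male 1 highest at 0.743 CPM and FXR+/+ male 2 lowest at 0.126. The log2 difference was 0.55 (SE 0.61), 1.20 (SE 0.56) without FXR+/+ male 1, -0.02 (SE 0.45) without FXR+/+ male 2 and 0.12 (SE 0.52) with a term for acinar RNA. It was above 0 in 12 of 13 alternatives, and the exception, without FXR+/+ male 2, lay well within its SE of 0. The size of the difference therefore depended on single libraries at this depth.

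*Gfap* (NCBI gene 14580, minus strand, chr11:102887336-102897200), an intermediate filament of astrocytes and of non-myelinating Schwann cells, had 15, 12 and 11 counts in FXR+/+ and 26, 21 and 18 in FXR-/-. In CPM this was 0.639, 0.595 and 0.347 against 1.05, 1.10 and 0.757. Unlike *Sox10*, *Gfap* was not high in FXR+/+ male 1, and its log2 difference was 0.91 (SE 0.39) with that library and 1.06 (SE 0.40) without it, and 0.62 (SE 0.38) with a term for acinar RNA. The exon table held 8, 10 and 10 counts in FXR+/+ and 20, 7 and 10 in FXR-/-, so that the groups overlapped there and the separation rested on the gene table.

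*Cryab* (NCBI gene 12955, plus strand, chr9:50745951-50756636), a small heat shock protein that glia and muscle express strongly, was at 1.75, 4.16 and 1.48 CPM in FXR+/+ and 3.73, 5.79 and 4.54 in FXR-/-. The male 1 libraries were highest within their genotypes, and FXR+/+ male 1 exceeded FXR-/- female 1. The log2 difference was 0.97 (SE 0.36), 1.49 (SE 0.27) without FXR+/+ male 1 and 0.63 (SE 0.21) with a term for acinar RNA. Of its exon bases, 252 overlap *Hspb2*, another small heat shock gene on the opposite strand, which had 2 to 11 counts in FXR+/+ and 9 to 12 in FXR-/-. Of 10 other heat shock genes tested, 1 was higher at an unadjusted p under 0.05, near the 6.19% of all genes. This was *Hspb8*, at 11.8 to 15.3 CPM in FXR+/+ and 15.8 to 20.7 in FXR-/- (log2 difference 0.44, SE 0.12, adjusted p = 0.378). The stress-induced *Hspa1a* was at 399 CPM in FXR+/+ male 1 and 349 and 372 in the FXR-/- males, against 81.2 to 100 in the other 3 libraries, *Dnajb1* was highest in FXR-/- male 1 at 228 CPM, and *Hsph1* ranged from 66.5 to 206 CPM with overlapping groups. Whether heat shock during isolation has a part in the *Cryab* values was not tested.

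*Ncam1* (NCBI gene 17967, minus strand, chr9:49502129-49799393) was the 1 gene of the 8 with a genotype difference near 0. It was at 114, 97.6 and 102 CPM in FXR+/+ and 117, 94.2 and 98.2 in FXR-/-, so that the values of each pair were nearly the same. The log2 difference was -0.02 (SE 0.07), and the pair ratios were 1.02, 0.965 and 0.963. With 12.1 ± 0.981 CPM per kilobase of exon in FXR+/+ it was the most abundant of the 8, at percentile 78.4. Exon 1 of the table, the shared end of the transmembrane forms, was at 54.5 ± 6.49 exon CPM in FXR+/+ and 54.0 ± 8.03 in FXR-/-. Exon 2, annotated only in the longest transmembrane transcript, was at 0.692 ± 0.0520 and 0.632 ± 0.130, and exon 5, which ends a shorter transcript, at 1.34 ± 0.528 and 1.39 ± 0.697. Per kilobase the means over all libraries were 15.8 exon CPM for exon 1, 0.826 for exon 2 and 0.558 for exon 5. Of 10 tested genes of related adhesion molecules and receptors, 0 passed either threshold. The most abundant were the contactin gene *Cntn1*, at 59.4 to 70.4 CPM in FXR+/+ and 57.3 to 78.2 in FXR-/-, the FGF receptor gene *Fgfr1*, at 21.7 to 29.3 and 23.7 to 35.1, and the GDNF receptor gene *Gfra1*, at 13.3 to 20.4 and 16.2 to 23.0.

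**Figure D3:**
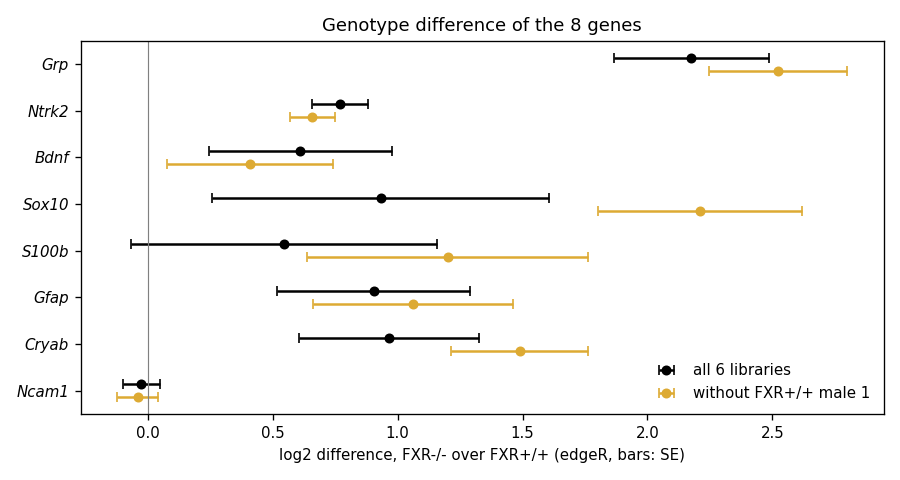
Log2 difference of FXR-/- over FXR+/+ from edgeR with a term for sex (points, bars: SE) for the 8 genes, with all 6 libraries in black and without FXR+/+ male 1 in yellow. *Sox10* moves from 0.93 to 2.21 and *S100b* from 0.55 to 1.20, while *Ntrk2* and *Ncam1* stay near 0.7 and 0.

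The order of the 8 genes by mean level per kilobase of exon in FXR+/+ was *Ncam1* (12.1 ± 0.981 CPM per kilobase), *Ntrk2* (5.11 ± 0.804), *Cryab* (1.67 ± 0.998), *Grp* (0.628 ± 0.272), *Sox10* (0.357 ± 0.394), *S100b* (0.301 ± 0.208), *Gfap* (0.125 ± 0.0373) and *Bdnf* (0.0934 ± 0.0257). From *Grp* downward, neighbours in this order differed by less than their spread. In FXR-/- *Grp* was at 2.77 ± 0.353, next to *Cryab* at 3.17 ± 0.701, and the glial genes *Sox10*, *S100b* and *Gfap* were at 0.603 ± 0.171, 0.406 ± 0.0497 and 0.230 ± 0.0444.

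Sex was independent of the contrast that chose the genes and could be tested. In the same fit, 8 of 14619 genes (0.0547%) differed between the 2 female and the 4 male libraries at an adjusted p under 0.05, and none of the 8 genes described here was among them, by edgeR or by DESeq2. The lowest unadjusted p of the 8 was that of *Ncam1*, which was at 115 CPM in females and 98.0 in males on average (log2 difference 0.23 female over male, SE 0.08, adjusted p = 0.572 by edgeR). *Cryab* was at 2.74 and 3.99 CPM (log2 difference -0.55, SE 0.39, adjusted p = 0.738). For an interaction of genotype and sex, 0% of all genes passed the adjusted threshold and 1.48% an unadjusted p under 0.05. None of the 8 was among the latter. The interaction for *Grp* was 0.81 on the log2 scale, with an SE of 0.69, and for *Ntrk2* -0.04, with an SE of 0.26. With 1 female library per genotype, only large interactions could have been detected.

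The Schwann cell markers were compared with these genes library by library. None of the 7 defining markers, among them *Cdh19*, *Foxd3*, *Erbb3*, *Gfra3* and *Scn7a*, was at 0 in any library, and their summed level was 21.1 to 31.8 CPM in FXR+/+ and 30.1 to 35.1 in FXR-/-. By edgeR 0 of 7 passed the adjusted threshold, 1 was higher at an unadjusted p under 0.05, and 1 had all FXR-/- libraries above all FXR+/+ libraries. *Gfra3*, a receptor of the GDNF family and the most abundant of those named, was at 5.21 to 7.97 CPM in FXR+/+ and 6.44 to 7.86 in FXR-/-, and *Erbb3*, the neuregulin receptor, at 3.76 to 4.96 and 4.50 to 4.94, so both overlapped. Of the 12 other Schwann cell genes tested, 3 were higher at an unadjusted p under 0.05, against 6.19% of all genes, and 3 had FXR-/- libraries wholly above, against 8.02%. The myelin basic protein gene *Mbp* was at 54.0 to 72.0 CPM and 83.9 to 91.7 CPM (log2 difference 0.53, SE 0.10, adjusted p = 0.240, and 0.00276 by DESeq2), *Mal*, a proteolipid of myelin and epithelia, at 0.536 to 1.24 and 1.37 to 1.78, and *Fabp7*, a fatty acid binding protein of immature glia, at 0.158 to 0.843 and 0.926 to 1.17. *Matn2*, a matrix protein gene, and *Cnp*, a myelin enzyme gene, were the next most abundant and overlapped between genotypes.

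Genes of autonomic neurons mostly had a high FXR+/+ male 1, as *Sox10* did. Of 16 tested, 2 were higher and 1 lower at an unadjusted p under 0.05, against 6.19% and 4.16% of all genes, and 2 had FXR-/- libraries wholly above, against 8.02%. The higher ones were *Hand2*, a transcription factor of sympathetic neurons, at 1.48 to 3.57 CPM in FXR+/+ and 3.79 to 4.79 in FXR-/-, and *Tubb3*, neuronal tubulin, at 29.3 to 42.5 and 42.0 to 46.0, and the groups apart were those of *Hand2* and of the neurofilament gene *Nefh*. *Th*, tyrosine hydroxylase, was lower, at 61.4 to 83.2 and 50.7 to 63.5 CPM (log2 difference -0.33, SE 0.07, adjusted p = 0.287, and 0.0180 by DESeq2). *Ret*, at 139 to 173 and 140 to 172 CPM, was the most abundant and overlapped. The summed level of the list was 272 to 328 CPM in FXR+/+ and 296 to 322 in FXR-/-. *Ret* and *Th* made up most of it in every library, so the sum does not describe the scarcer genes of the list. Among neuropeptide genes other than *Grp*, listed together with the nitric oxide synthase gene *Nos1* of the same nerves, 5 of 8 tested were higher at an unadjusted p under 0.05, against 6.19% of all genes, and 4 had FXR-/- libraries wholly above, against 8.02%. *Vip*, vasoactive intestinal peptide, was at 13.2, 19.4 and 6.79 CPM in FXR+/+ and 30.3, 23.7 and 23.1 in FXR-/-, and *Npy*, neuropeptide Y, at 14.0, 16.2 and 6.25 against 29.9, 17.0 and 16.7. *Gal*, galanin, had a log2 difference of 0.99 (SE 0.32), *Tac1*, the gene of substance P, of 1.14 (SE 0.45) and *Cartpt*, the precursor of the CART peptides, of 1.37 (SE 0.30). None of the 8 tested passed the adjusted threshold by edgeR, with or without the replicate block, or by DESeq2.

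**Figure D4:**
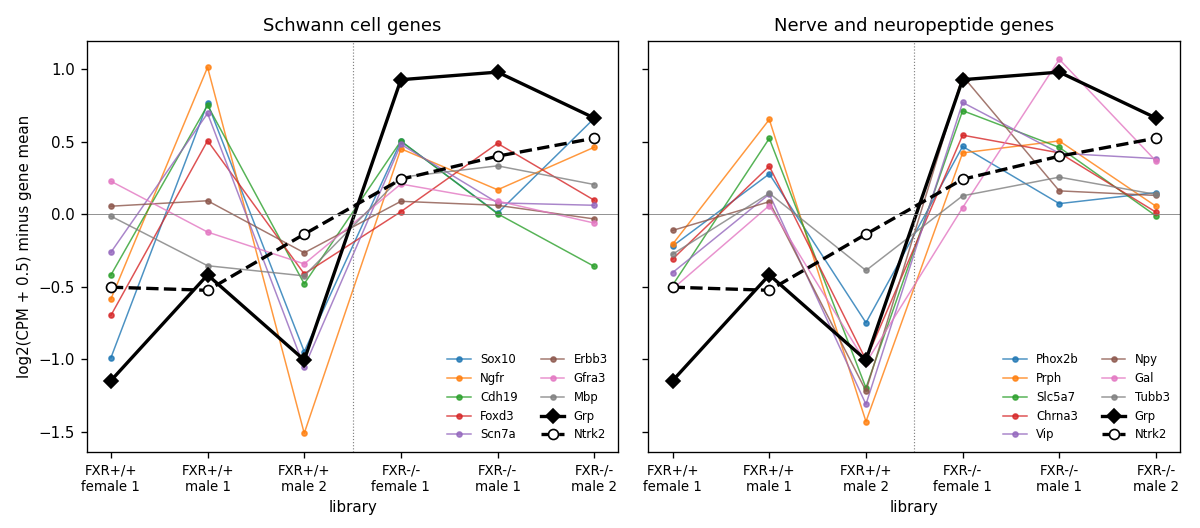
Each line is 1 gene across the 6 libraries, as log2(CPM + 0.5) minus the mean of the gene, with *Grp* (filled diamonds) and *Ntrk2* (open circles, dashed) in black beside Schwann cell genes (left) and nerve genes (right); lines only join the values of a gene, since libraries have no order. In FXR+/+ male 1, *Sox10*, *Ngfr* and *Cdh19* stand above their means. *Grp* and *Ntrk2* are below theirs in all 3 FXR+/+ libraries. Since both were chosen on the genotype contrast, nothing is read from this.

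In FXR+/+ male 1 some of the genes reached the FXR-/- range together with nerve and Schwann cell markers and others did not. There *Sox10*, *S100b* and *Cryab* lay within or above the FXR-/- range, as did 3 of the 7 defining Schwann cell markers (*Cdh19*, *Foxd3* and *Scn7a*) and 11 genes of the autonomic neuron list, for which both other FXR+/+ libraries were below all FXR-/- libraries. *Grp*, *Ntrk2*, *Bdnf* and *Gfap* were below all FXR-/- libraries in it too, but the genes were chosen on this contrast. Among the FXR+/+ libraries *Grp* was highest in male 1, at 1.39 CPM against 0.639 in female 1 and 0.758 in male 2. *Ntrk2* was lowest there, at 89.1 CPM against 90.4 and 117. With FXR+/+ male 1 left out, a choice made after its values were seen, all FXR-/- libraries lay above both FXR+/+ libraries for 4 of 7 defining Schwann cell markers, 9 of 12 other Schwann cell genes, 13 of 16 autonomic neuron genes and 8 of 8 neuropeptide genes, where this held for 18.1% of all genes. It also held for 10 of 11 genes of stellate cells, pericytes and fibroblasts, 7 of 7 endothelial genes and 9 of 11 acinar genes, for 4 of 13 genes shared by neurons and endocrine cells, for 2 of 7 beta cell genes and for 0 of 6 alpha cell and 0 of 4 delta cell genes. Leaving out 1 library of a pair makes this comparison unbalanced, since FXR-/- male 1, the other library rich in acinar RNA, stayed in it. With both male 1 libraries left out, both FXR-/- libraries lay above both FXR+/+ libraries for 4 of 7 defining Schwann cell markers, 10 of 12 other Schwann cell genes, 13 of 16 autonomic neuron genes, 8 of 8 neuropeptide genes, 10 of 11 stellate, pericyte and fibroblast genes, 7 of 7 endothelial genes and 9 of 11 acinar genes, where this held for 22.8% of all genes. The log2 differences were then 2.44 (SE 0.29) for *Grp*, 0.70 (SE 0.10) for *Ntrk2* and 2.41 (SE 0.36) for *Sox10*. The part of these other cells in the *Grp* and *Ntrk2* values was not tested.

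The medians of the lists show the same dependence on that library. Of the defining Schwann cell markers the median log2 difference was 0.17 with all libraries and 0.74 without FXR+/+ male 1, of the other Schwann cell genes 0.47 and 0.94, of the autonomic neuron genes 0.61 and 1.25 and of the neuropeptide genes 0.89 and 1.50. Single genes moved too, among them *Ngfr* from 0.55 to 2.04, *Fabp7* from 1.45 to 2.48 and *Vip* from 0.97 to 1.52. That of *Mbp* went from 0.53 to 0.51. The list of stellate cells, pericytes and fibroblasts went from 0.76 to 1.43, the acinar list from 0.41 to 0.94 and the endothelial list from 0.51 to 0.62, while all genes tested were at 0.01 in both cases. Without both male 1 libraries the medians were lower than these, at 0.42 for the defining Schwann cell markers (6 of 7 could be fitted), 0.64 for the other Schwann cell genes, 1.11 for autonomic neurons, 1.40 for neuropeptides, 1.33 for stellate cells, pericytes and fibroblasts, 0.61 for acinar genes and 0.43 for endothelial genes, the last below its value with all libraries. Of the 11 stellate, pericyte and fibroblast genes 1, *Des*, was higher at an unadjusted p under 0.05, and their summed level was 160 to 284 CPM in FXR+/+ and 253 to 323 in FXR-/-. Of the 7 endothelial genes 6 were, against 6.19% of all genes, led by *Tek*, *Plvap*, *Tie1* and *Cdh5*, and their summed level of 461 to 546 CPM in FXR+/+ lay below the 571 to 922 in FXR-/-. *Plvap*, of fenestrated endothelium, had a log2 difference of 0.69 (SE 0.17, adjusted p = 0.335, and 0.00841 by DESeq2).

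**Figure D5:**
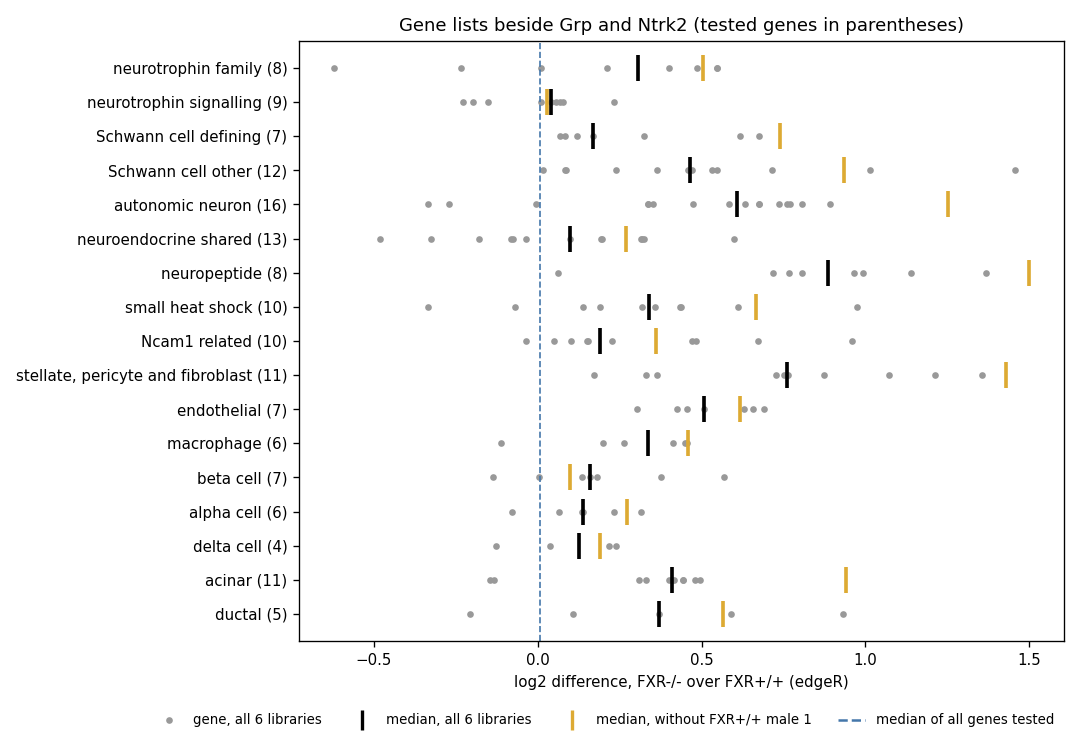
Log2 difference of FXR-/- over FXR+/+ from edgeR for each tested gene of 17 lists (grey points), with the list median over all 6 libraries (black bar), the median without FXR+/+ male 1 (yellow bar) and the median of all genes tested (dashed line). The neuropeptide list has the highest median with all libraries, 0.89, and the nerve, Schwann cell, fibroblast and acinar medians move to the right without FXR+/+ male 1.

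The genes whose pattern over the 6 libraries was most like that of *Grp* and *Ntrk2* were ranked as a description, on the same values that chose both genes. Likeness was measured as the root mean square difference of log2(CPM + 0.5), each gene centred on its own mean, among the 888 tested genes with a standard deviation of at least 0.5 times that of *Grp*. The closest to *Grp* were *Gas2l3* (0.260), a cytoskeletal linker gene, *Nckap5* (0.261), *Ces1d* (0.291), a carboxylesterase gene, *Htra3* (0.335), a secreted protease gene, and *Cartpt* (0.349), which is also on the neuropeptide list. *Gas2l3* was at 0.426 to 0.892 CPM in FXR+/+ and 4.38 to 4.98 in FXR-/-, and *Nckap5* at 0.821 to 1.59 and 4.13 to 4.26. Of the other genes described here *Cryab* ranked 32 (0.481) and *Sox10* 212 (0.652), and the rest varied too little on this scale to be ranked, where the added 0.5 CPM also shrinks scarce genes such as *S100b* and *Gfap*. *Ntrk2* was compared with 4838 genes, and the closest were *Map2k6* (0.120), a kinase of the p38 pathway, *Lppr1* (0.130), *Upk3a* (0.130), a uroplakin gene, *Pitpnm3* (0.135) and *Ckb* (0.151), brain-type creatine kinase. *Pitpnm3* was at 67.9 to 82.0 CPM in FXR+/+ and 94.7 to 115 in FXR-/-, and *Ckb* at 28.6 to 39.0 and 43.6 to 67.8. Against *Ntrk2*, *Bdnf* ranked 86 (0.234), *Gfap* 607 (0.339), *S100b* 2042 (0.488), *Cryab* 2186 (0.5003), *Grp* 3253 (0.578) and *Sox10* 4280 (0.682). *Grp* and *Ntrk2* both had no overlap between genotypes, the contrast they were chosen on, but differed in the size of the difference. The measure counts the size of a gene's changes as well as their direction. *Ncam1*, which varied too little to be ranked, was at 0.460 from *Ntrk2*, nearer than *Grp* at 0.578. *Sox10* was among the genes least like *Ntrk2* on this measure, which may reflect its spread as well as its pattern. These ranks describe 6 libraries and carry no test.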

How the data were processed

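Poly(A) RNA of islets from 3 FXR+/+ and 3 FXR-/- samples was sequenced by the authors. They deposited counts per gene and counts per exon, whole numbers without normalization. The submitters' processing notes name HISAT, and the counting rule, genome build and strand setting are not given in the sources used here. Both ends of 87.1% of the 139263 exons in the table lie at exon boundaries of GENCODE vM21, so GRCm38 was used for positions. The authors also deposited their own comparison of genotypes (fold changes and p-values), which was not used. No sample column was left unused.

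The test across genes used edgeR 4.0.16 under R 4.3.3 (filterByExpr with minimum count 10 and minimum total 15, TMM, glmQLFit without legacy estimates, glmQLFTest, terms for sex and genotype, Benjamini-Hochberg adjustment over 14619 genes), with 3 residual and 4.43 prior degrees of freedom. CPM are counts scaled to TMM library sizes. Levels per kilobase use the union of GENCODE exons, available for 95.8% of the tested genes. Standard errors come from the F statistic. Forms of *Ntrk2* were compared with an exact permutation test over libraries (scipy). The fit was tested on simulated data.

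The labels give the same replicate numbers to both genotypes. Deviations from the genotype means correlated across genes at 0.373 (female 1), 0.419 (male 1) and 0.346 (male 2) for equal numbers, and at 0.0628 or below for unequal numbers, so the numbers were taken to pair the libraries. These correlations depend on one another, since deviations from a genotype mean cancel within each gene. The female 1 libraries also share sex and the male 1 libraries a high share of acinar RNA. The check therefore cannot show that the numbers mark real pairs, on which the replicate block rests. What the numbers stand for is not stated. Alternatives were a fit without sex, the replicate block, males alone, DESeq2 1.42.0, library size scaling, other filters, summed exon counts, a term for the acinar list, each library left out, and, chosen after the data were seen, both male 1 libraries left out. Precision is limited by depth: a gene near 10 counts per library cannot show small differences.

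The genes and the 18 lists beside them were chosen with earlier results of these data known. Named are the 8 genes, up to 4 genes per list at an unadjusted p under 0.05, the 3 most abundant of a list, the 5 genes most like *Grp* and *Ntrk2*, and others as chosen after their values were seen, among them the further neurotrophin, bombesin and heat shock genes. Some listed genes are not reported here.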

Additional observations from a re-analysis of the deposited data

How the results depend on the processing

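The count of genes with an adjusted p under 0.05 was 0 by edgeR with all 6 libraries, 24 with the replicate block (20 of them higher in FXR-/-), 177 with DESeq2 (122 higher) and 8 with a term for acinar RNA (*Ntrk2* among them, *Grp* not), and it stayed at 0 when each library was left out. Summed exon counts, over 13764 genes, gave 4. The log2 difference of *Grp* was 2.18 and ranged from 1.92 to 2.52 with single libraries left out, and it was 2.68 from exon counts. That of *Ntrk2* ranged from 0.66 to 0.89 over all 15 alternatives. The replicate block gave 2.17 for *Grp* and 0.78 for *Ntrk2*. Since the genes were chosen on this contrast, these values are a description. With single libraries left out, *Sox10* ranged from 0.39 to 2.21, *S100b* from -0.02 to 1.20, *Bdnf* from 0.41 to 0.80 and *Cryab* from 0.60 to 1.49. With a term for acinar RNA, *Grp* was at 1.93, *Ntrk2* at 0.89, *Sox10* at 0.58, *S100b* at 0.12, *Gfap* at 0.62 and *Cryab* at 0.63. *Ncam1* was above 0 in 3 of 15 alternatives, always within 0.12 of it. The difference in the truncated share of *Ntrk2*, 0.286 percentage points, ranged from -0.0748 without FXR-/- male 1 to 0.684 without FXR-/- female 1. The causes were not tested. Scaling by library size alone moved the median of all genes from 0.01 to -0.09 on the log2 scale. No member was called for sex by DESeq2 or with any single library left out, the 7 alternatives run for it. Of the list medians without both male 1 libraries, that of the bombesin list, which is *Nmb* alone, changed sign, to -0.15. At 4 to 54 counts per library, *Sox10*, *S100b*, *Gfap* and *Bdnf* are limited by depth.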

Other observations

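Genes of endocrine, ductal and macrophage cells were described by the same counts, where 6.19% of all genes were higher and 4.16% lower at an unadjusted p under 0.05. Of the 7 beta cell genes 2 were higher in FXR-/- at an unadjusted p under 0.05, *Mafa*, a transcription factor of mature beta cells, at 314 to 324 CPM in FXR+/+ and 446 to 495 in FXR-/-, and *Nkx6-1*, at 282 to 399 and 369 to 472. Of 6 alpha cell and 4 delta cell genes 0 passed either threshold by edgeR. Of genes shared by neurons and endocrine cells 13 were tested, of which 3 were higher and 1 lower at an unadjusted p under 0.05. *Isl1*, a transcription factor of both, was lower, at 139 to 157 CPM in FXR+/+ and 93.6 to 117 in FXR-/-, while *Ddc*, the amino acid decarboxylase, was at 265 to 323 and 332 to 362, *Syn1*, a synaptic vesicle protein, at 42.9 to 48.6 and 49.2 to 66.3, and *Nefm*, a neurofilament, at 12.6 to 19.3 and 18.2 to 20.6. Of the 5 ductal genes tested 2 were higher at an unadjusted p under 0.05, *Sox9*, at 2.27 to 5.45 and 4.96 to 8.41 CPM, and *Krt19*, at 2.75 to 4.65 and 3.96 to 6.05. *Krt7*, the most abundant ductal gene, had all FXR-/- libraries below all FXR+/+ libraries, at 200.5 to 226 CPM in FXR+/+ and 167 to 197 in FXR-/- (log2 difference -0.21, SE 0.10), and the summed level of the list was 239 to 278 CPM and 227 to 267. Of the 6 macrophage genes 4 were higher at an unadjusted p under 0.05, *C1qa*, *C1qb*, *C1qc* and *Csf1r*. None of these genes passed the adjusted threshold by edgeR, and *Mafa* and *Isl1* did by DESeq2.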
